A study of Mus musculus with 6 samples.

Results

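The 10 genes described here are Notch ligands (Dll1, Dll3, Jag1 and Jag2), receptors (Notch1, Notch2 and Notch3), the receptor-modifying enzyme Lfng and the target genes Hes1 and Hey1. They were taken by name from the 24054 genes of the RNA-seq tables, and all 10 were among the 14539 genes that passed the filter on low counts. RNA-seq had been performed on a mouse ESC line with knock-in reporters, in which Foxa2 is fused to Venus on 1 allele (heterozygous) and Sox17 to Cherry on both (homozygous), and every sample carried both reporters. Undifferentiated cells sorted as negative for both reporters (d0), Foxa2-Venus positive and Sox17-Cherry negative cells at day 3 (d3F, mesendoderm) and cells positive for both at day 5 (d5FS, definitive endoderm) were compared, with 2 replicates each. The d3F and d5FS cells had been differentiated with Wnt3a at 1 ng/ml and Activin A at 10 ng/ml, while no dose is given for d0, so day, treatment and sorting gate cannot be told apart. All samples came from a single cell line, and the reporter proteins that defined the gates are fused to genes of the endoderm programme itself.

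Notch signalling passes between touching cells. A ligand of the Delta (Dll) or Jagged (Jag) family on one cell binds a Notch receptor on its neighbour, proteases release the intracellular part of the receptor, and this fragment joins the DNA-binding protein Rbpj and a Mastermind (Maml) co-activator in the nucleus to switch on targets such as the Hes and Hey repressors. Fringe enzymes, Lfng among them, add a sugar to the receptor and change which ligands it answers to. In the embryo the pathway is known for choices between neighbouring cell fates, for somite segmentation and for blood vessel growth.

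Expected counts (RSEM estimates of the fragments per gene) summed to between 16457728.93 and 22768686.01 per library. Levels are given as CPM, read counts scaled to library size with the TMM factors of edgeR, and differences as log2 fold changes (FC) with standard errors (SE) from a single edgeR quasi-likelihood fit to all 6 libraries. A gene was called when its Benjamini-Hochberg adjusted p was under 0.05 and its absolute log2 FC above 1. The populations were recognisable by their markers: from d0 to d5FS all 6 pluripotency genes fell, all 6 definitive endoderm genes rose, and all 5 mesendoderm genes rose from d0 to d3F. The d0 replicates differed more than those of the other populations, with summed pluripotency marker levels of 1822 and 6977 CPM and 4.3% and 11.2% of counts in small non-coding RNAs. Summed fibroblast markers were at 9.61 and 14.6 CPM in d0, 31.7 and 77 CPM in d3F and 232 and 195 CPM in d5FS, with 4 of 6 rising from d0 to d5FS and none at 0, and the summed visceral endoderm markers were at 28.3 and 78.6, 16.7 and 16.3, and 73.4 and 144 CPM, with 4 of 6 rising over the same interval and Ttr at 0 in at least 1 library. Neuroectoderm markers summed to between 1.1 and 4.2 CPM, and of the 3 tested none was called by edgeR without the replicate block, while Sox1 was called lower from d0 to d5FS with it (-2.32, adjusted p = 0.0332).

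From d0 to d3F, 2 of the 10 Notch genes were called, Notch3 and Hes1, both higher in d3F, against 2.8% of all genes tested that were called higher and 4.7% called in either direction. From d3F to d5FS no Notch gene was called by the edgeR fit described above (the main fit), against 1.54% of all genes. In that fit 1 was at an unadjusted edgeR p under 0.05. The share of all genes at that unadjusted p was not counted. The DESeq2 Wald test called 1 Notch gene, beside 1104 genes in all. From d0 to d5FS Notch3 and Hes1 were higher and Lfng was lower, so that 3 of 10 were called against 22.8% of all genes, of which 12.4% were higher and 10.4% lower. With the replicate number as a block, which the labels share between populations, 4, 1 and 4 Notch genes were called in these comparisons, against 9.08%, 6.31% and 29.5% of all genes. When DESeq2 tested against a log2 FC of 1 instead of 0, no Notch gene was called from d0 to d3F and Hes1 alone from d0 to d5FS. The median log2 FC of the 10 genes was 0.48, -0.18 and -0.06 in the order of the comparisons, beside -0.01, 0.01 and 0.02 for all genes tested. These comparisons share libraries and are not independent of one another, and in bulk libraries fewer cells that express a gene and less RNA per cell cannot be told apart.

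**Figure D1:**
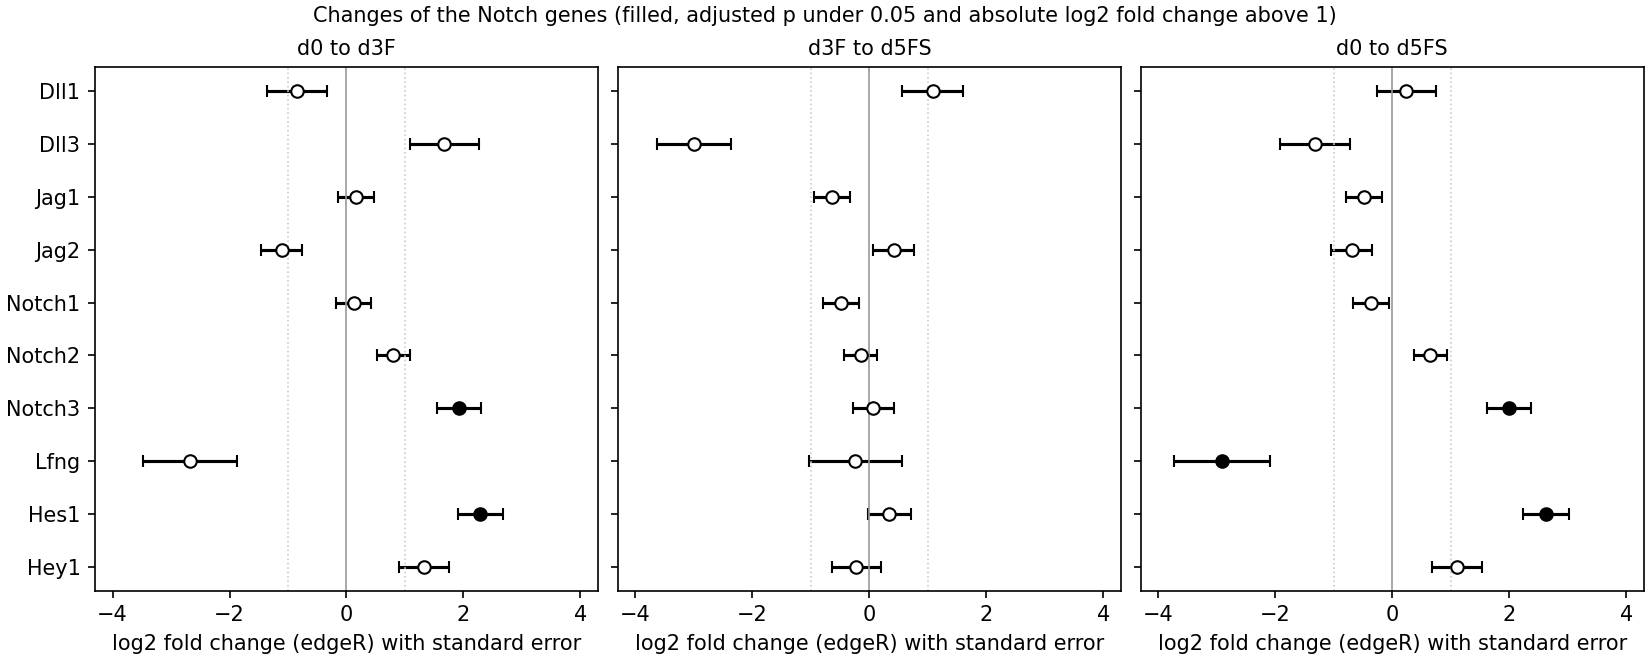
Fitted log2 fold changes of the 10 Notch genes (x axis, log2 scale) in each of the 3 comparisons (panels), with bars for the standard error and filled points for genes past both thresholds. Notch3 and Hes1 lie to the right of the dotted line at 1 from d0 to d3F and from d0 to d5FS, and between d3F and d5FS no point is filled, with Dll3 farthest from 0 at -3.0.

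Of the receptors, Notch3 was the one called by edgeR. Notch3 (chr17:32120820-32166852, - strand, positions of all genes from GENCODE M21 on GRCm38) was at 75 and 56 CPM in d0, 184 and 314 CPM in d3F and 219 and 304 CPM in d5FS. Both differentiated populations lay above both d0 libraries, while the d3F and d5FS libraries overlapped. Notch3 rose from d0 to d3F by a log2 FC of 1.92 (SE 0.371, edgeR adjusted p = 0.028) and from d0 to d5FS by 2.0 (SE 0.372, adjusted p = 0.00927), and between d3F and d5FS its log2 FC was 0.07 (SE 0.358, adjusted p = 0.939). The rise to d5FS was called with each library left out in turn, but the rise to d3F was not called without d0 replicate 2 (1.74, adjusted p = 0.117) or without d3F replicate 2 (1.5, adjusted p = 0.208). The summed fibroblast markers given above were higher in d3F and d5FS than in d0, as Notch3 was. From d3F to d5FS their sum was higher again, while the log2 FC of Notch3 was 0.07. Thy1 of this list was lower in d5FS (1.02 and 0.459 CPM) than in d0 (3.07 and 1.49 CPM). The part of these markers in the result was not tested.

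Notch2 (chr3:98013527-98150361, + strand), a receptor found in many tissues, was at 86.1 and 65.2 CPM in d0, 120 and 144 CPM in d3F and 114 and 123 CPM in d5FS. Both later populations were above d0 in every library. The log2 FC of 0.80 from d0 to d3F (SE 0.286, adjusted p = 0.155) and of 0.65 from d0 to d5FS (SE 0.285, adjusted p = 0.129) did not pass. Notch1 (chr2:26457903-26516663, - strand), the receptor most studied in the early embryo, was at 26.5 and 35.1, 32.1 and 34.9, and 21.7 and 26.1 CPM in d0, d3F and d5FS. The d0 and d3F libraries of Notch1 overlapped and both d5FS libraries were below all others. Its log2 FC was 0.12 (SE 0.304), -0.49 (SE 0.306) and -0.36 (SE 0.305) from d0 to d3F, d3F to d5FS and d0 to d5FS, and none of these passed (adjusted p = 0.874, 0.445 and 0.417). Some exon bases of Notch1 (1068 shared with 0610009E02Rik and 414 with Gm13568, of 14232) and of Notch3 (488 of 8089, shared with Gm17276) lie opposite an antisense gene of GENCODE M21, and without knowledge of the strand setting reads from the pair cannot be told apart. Notch2 shares 541 of its 10782 exon bases with Gm42820 on the same strand.

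To set receptors beside each other, counts were divided by effective length, and each receptor was expressed as a share of the summed level of Notch1, Notch2, Notch3 and Notch4. Notch3 made up 42.4% ± 4.85 (SD, n = 2) of this sum in d0, 64.8% ± 6.15 in d3F and 69.9% ± 3.53 in d5FS. The share of Notch2 was 36.7% ± 3.79, 26.7% ± 4 and 24.3% ± 3.12, that of Notch1 was 16.9% ± 4.85, 7.61% ± 1.69 and 5.38% ± 0.271, and that of Notch4 was 4% ± 3.78, 0.831% ± 0.47 and 0.456% ± 0.131. Notch3 therefore had the highest share in all 6 libraries, and its lowest share in d3F or d5FS, 60.5%, exceeded its highest in d0, 45.8%. The summed receptor level per length was 19.9 ± 1.87 CPM per kb in d0, 48.9 ± 13.6 in d3F and 48.1 ± 8.63 in d5FS. Notch4 itself had a log2 FC of -1.82 from d0 to d5FS (SE 0.726, edgeR adjusted p = 0.101; DESeq2 Wald -1.87, adjusted p = 0.0458). Shares were not tested, since a rise of a single receptor lowers the shares of the others.

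**Figure D2:**
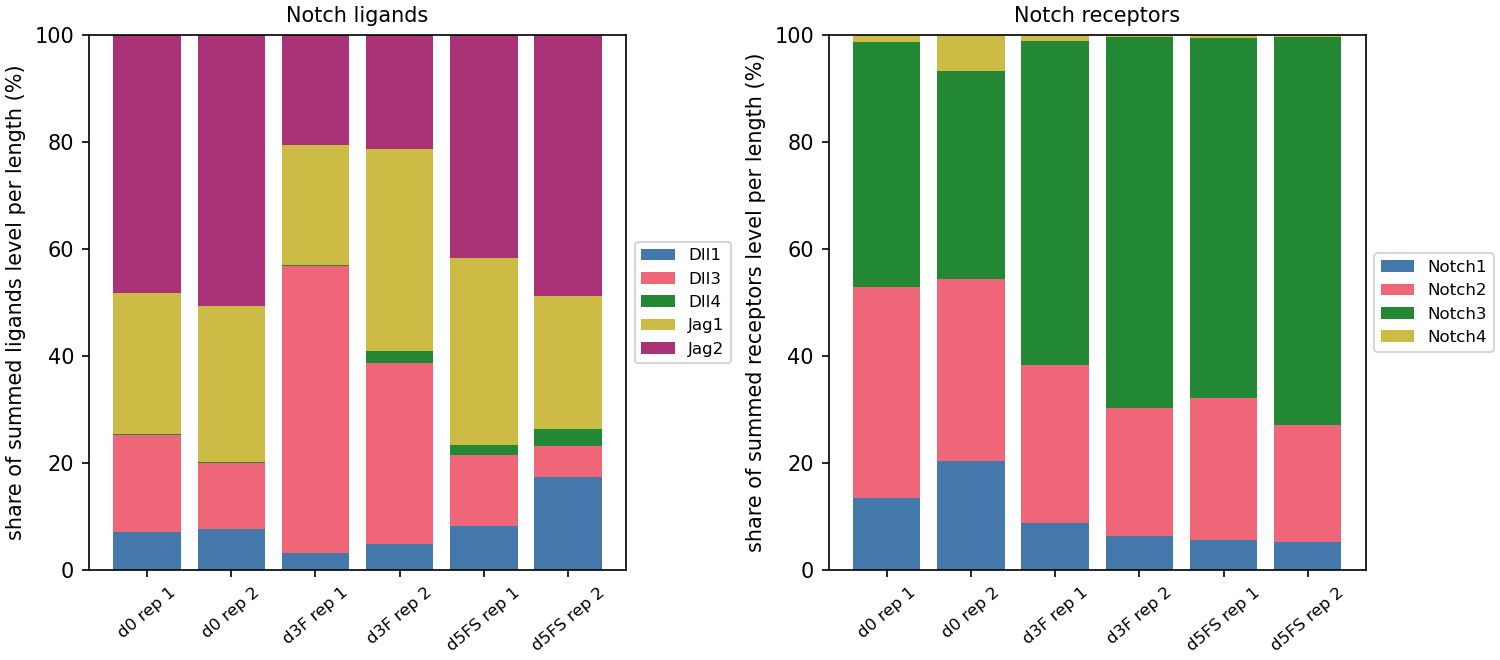
Shares (y axis, percent) of each ligand and each receptor in the summed level per length of its family, 1 bar per library. The Notch3 part of the receptor bars is between 60.5% and 72.4% in the 4 d3F and d5FS libraries, and the Dll3 part of the ligand bars is 53.7% and 33.9% in d3F and at most 18.1% in the other libraries.

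Among the ligands, Dll3 was the one whose d3F libraries lay above all d0 and d5FS libraries. Dll3 differs from the other ligands in that it does not activate receptors on neighbouring cells and is known to dampen Notch signalling within the cell that makes it. Dll3 (chr7:28293553-28302238, - strand) was at 9.12 and 4.25 CPM in d0, 30.5 and 12.2 CPM in d3F and 3.57 and 1.78 CPM in d5FS. The populations did not overlap, and in each of them replicate 1 was higher than replicate 2. Against the mean of d0 and d5FS, d3F was higher by a log2 FC of 2.34 (SE 0.483, edgeR adjusted p = 0.101), which did not pass, while it passed with the replicate block (2.29, adjusted p = 0.0157). In that comparison the main edgeR fit called no Notch gene and the fit with the block Dll3 alone, against 0.413% and 1.18% of all genes. The DESeq2 Wald test also called Dll3 alone, beside 578 genes in all. Without the block 4 Notch genes were at an unadjusted edgeR p under 0.05, and the share of all genes at that p was not counted. Step by step, the log2 FC of Dll3 was 1.67 from d0 to d3F (SE 0.589, adjusted p = 0.15, with the block 1.64 and 0.0216), -3.0 from d3F to d5FS (SE 0.628, adjusted p = 0.0623, with the block -2.94 and 0.00876) and -1.32 from d0 to d5FS (SE 0.604, adjusted p = 0.144, with the block -1.31 and 0.0161). The fall from d3F to d5FS was also called by the DESeq2 Wald test (adjusted p = 5.35e-05).

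Dll3 is known for its expression in paraxial mesoderm, so markers of that tissue were read beside it. They summed to 5.2 and 20.8 CPM in the d3F replicates and to between 1.58 and 2.97 CPM elsewhere, and Msgn1, Mesp1 and Ripply2 were at 0 in at least 1 library. Of the 4 that could be tested, 1, Mesp1, was called higher from d0 to d3F by the main edgeR fit, against 2.8% of all genes. Meox1 was called higher there with the block (4.21, adjusted p = 0.00766) and by the DESeq2 Wald test (4.26, adjusted p = 0.000164). From d3F to d5FS Meox1 was called lower with both (block -3.99, adjusted p = 0.0117, DESeq2 Wald -4.09, adjusted p = 0.000598). Mesp2 was called lower from d0 to d3F with both, and Tbx6 with neither. Most of the d3F sum was Meox1 (3.05 and 16.5 CPM), which was higher in replicate 2, whereas Tbx6 (0.69 and 0.455 CPM), like Dll3, was higher in replicate 1. Mesp1 (1.22 and 3.28 CPM in d3F), like Meox1, had its highest mean in d3F. Tbx6 had its highest mean in d5FS (1.42 and 0.688 CPM), where Dll3 was lowest. Mesp2 was lower in d3F (0.0406 and 0.253 CPM) than in d0 (1.1 and 1.85 CPM). The part of paraxial mesoderm in the Dll3 level was not tested.

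Jag2 and Dll1 had their lowest mean levels in d3F. Jag2 (chr12:112907819-112929776, - strand), a Jagged ligand, was at 47.6 and 34.4 CPM in d0, 22.9 and 15.1 CPM in d3F and 21.9 and 28.8 CPM in d5FS. Both later populations were below d0 in every library and overlapped each other. The log2 FC of Jag2 from d0 to d3F was -1.11 (SE 0.353, edgeR adjusted p = 0.116; DESeq2 Wald -1.15, adjusted p = 0.039), and from d0 to d5FS it was -0.69 (SE 0.351, adjusted p = 0.182). Dll1 (chr17:15367354-15376872, - strand), a Delta ligand that activates receptors on neighbouring cells, was at 5.97 and 4.41, 2.92 and 2.88, and 3.63 and 8.66 CPM in d0, d3F and d5FS. The d5FS replicates of Dll1 lay on both sides of the d0 values. Its log2 FC was -0.84 (SE 0.515, adjusted p = 0.423), 1.08 (SE 0.517, adjusted p = 0.314) and 0.24 (SE 0.507, adjusted p = 0.76) from d0 to d3F, d3F to d5FS and d0 to d5FS. An antisense gene, A930024N18Rik, covers 867 of the 4219 exon bases of Dll1.

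Jag1 (chr2:137081456-137116644, - strand), the other Jagged ligand, was at 36.1 and 27.4 CPM in d0, 34.4 and 36.7 CPM in d3F and 25.2 and 20.2 CPM in d5FS. The d0 and d3F libraries overlapped and the d5FS libraries were below them. None of its changes passed, with a log2 FC of 0.16 (SE 0.306, adjusted p = 0.828), -0.64 (SE 0.308, adjusted p = 0.313) and -0.48 (SE 0.307, adjusted p = 0.283). No ligand among the 4 was called in any comparison by the main edgeR fit, with all 6 libraries, the filter on low counts and no block. The DESeq2 Wald test called Jag2 and Dll3 as given above.

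As a share of the summed level per length of Dll1, Dll3, Dll4, Jag1 and Jag2, Jag2 led in d0 with 49.3% ± 1.77 (SD, n = 2), had 20.9% ± 0.602 in d3F and 45.2% ± 4.97 in d5FS. Dll3 had 15.2% ± 4.16 in d0, 43.8% ± 14 in d3F and 9.61% ± 5.28 in d5FS. The lead in d3F was with Dll3 in replicate 1 (53.7%), whereas in replicate 2 Jag1 led with 37.7% and Dll3 had 33.9%. The share of Jag1 was 27.9% ± 1.98, 30.1% ± 10.8 and 29.9% ± 7.12, and that of Dll1 was 7.47% ± 0.382, 3.99% ± 1.23 and 12.8% ± 6.5. The summed ligand level was 21.7 ± 5.76, 23.7 ± 7.55 and 14.5 ± 1.2 CPM per kb, and the d0 and d3F libraries overlapped in it while both d5FS libraries were below all others.

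**Figure D3:**
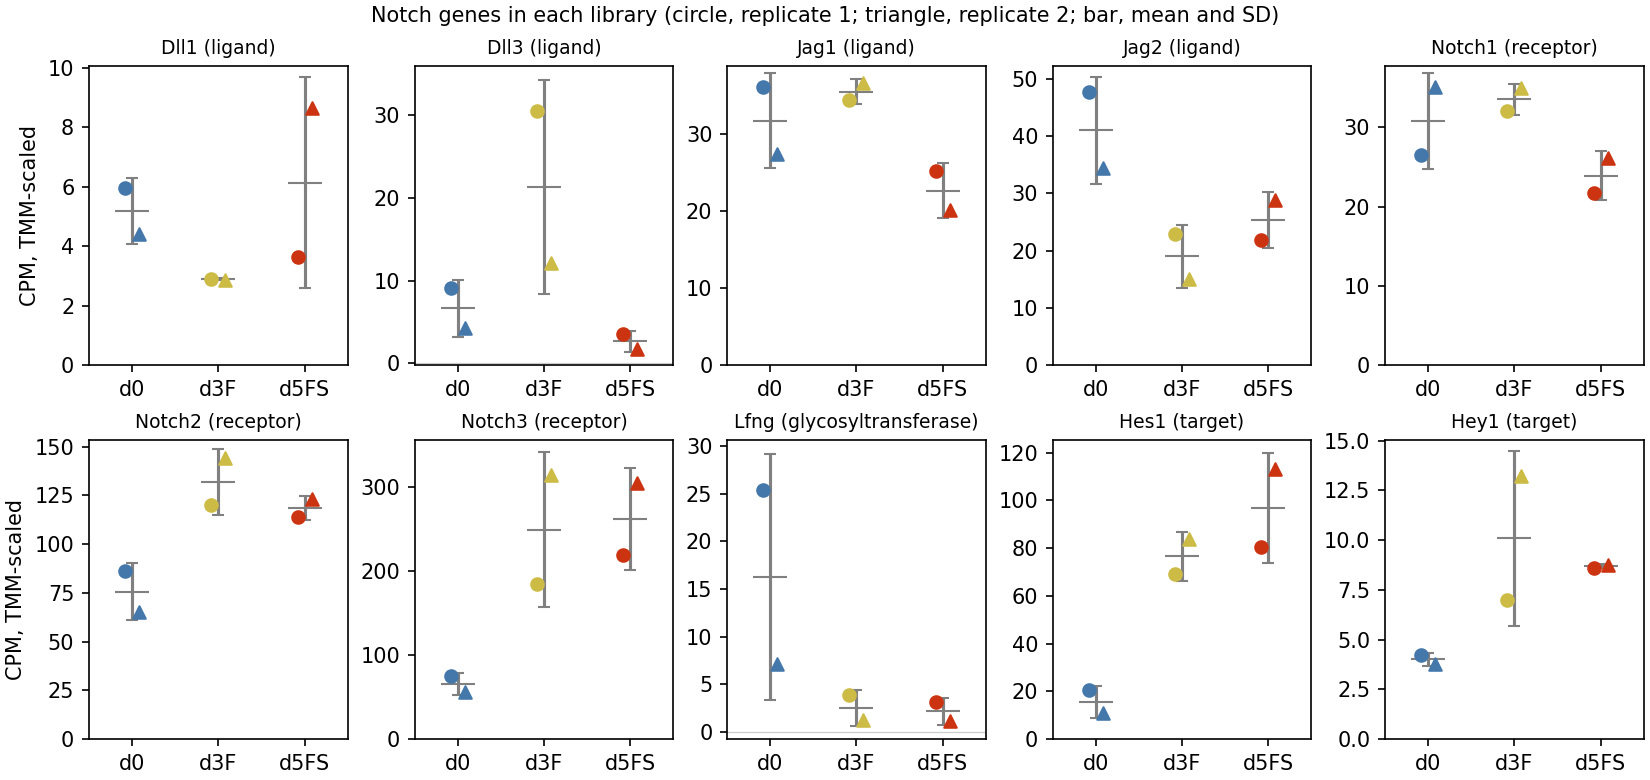
Levels of the 10 Notch genes in every library (y axis, TMM-scaled CPM, its own linear scale in each panel), with circles for replicate 1, triangles for replicate 2 and bars for the mean and SD of 2 replicates. Notch3 and Hes1 are higher in all 4 d3F and d5FS libraries than in d0, Lfng is highest in d0 replicate 1 at 25.4 CPM, and Dll3 is highest in d3F.

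Lfng had the largest fitted decrease of the 10 genes from d0. Lfng (chr5:140607320-140615545, + strand) was at 25.4 and 7.12 CPM in d0, 3.86 and 1.21 CPM in d3F and 3.18 and 1.15 CPM in d5FS. The 4 differentiated libraries were below both d0 libraries, and replicate 1 was higher than replicate 2 in each population. Lfng fell by a log2 FC of -2.91 from d0 to d5FS (SE 0.819, edgeR adjusted p = 0.0368). From d0 to d3F its log2 FC of -2.67 did not pass (SE 0.804, adjusted p = 0.101) but passed with the replicate block (-2.64, adjusted p = 0.0104), and from d3F to d5FS it was -0.24 (SE 0.793, adjusted p = 0.907). The fall to d5FS was not called without d0 replicate 1 (-1.73, adjusted p = 0.146), without d5FS replicate 1 (-3.82, adjusted p = 0.0862) or without d5FS replicate 2 (-2.34, adjusted p = 0.159). The d0 replicate with more Lfng was the one with the lower pluripotency marker sum, and the part of this difference in the result was not tested.

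Lfng is one of a family of 3 fringe enzymes. The summed level per length of Lfng, Mfng and Rfng was 16.1 ± 4.11 CPM per kb in d0, 5.76 ± 1.74 in d3F and 4.15 ± 0.317 in d5FS, and the d0 libraries were above all others. Lfng held 64.3% and 25.8% of this sum in the d0 replicates, 26.5% and 12.8% in d3F and 34.9% and 14% in d5FS, so its shares overlapped between populations. Mfng fell from d0 to d5FS by a log2 FC of -2.05 (SE 0.548, adjusted p = 0.0306), and Rfng, whose share was 24.4% ± 6.9, 60.3% ± 10.1 and 49.2% ± 5.52, had a log2 FC of -0.89 over the same interval (SE 0.388, adjusted p = 0.128).

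Promoter sequence was available for 8 of the 10 genes from RefSeq (GRCm38.p6), and the 250 bases before each start were searched on both strands for TGGGAA and the longer GTGGGAA, letters bound by Rbpj, and for CACGTG and also CACGCG, letters bound by Hes and Hey proteins. TGGGAA lies within GTGGGAA, so a match to the longer counts for both. Lfng was the only one of the 8 that held GTGGGAA and the shorter match within it, and it alone held CACGTG. The letters TGGGAA, the longer form and CACGTG occur in 21.6%, 5.42% and 6.02% of the 32851 promoters listed. CACGCG was found before Dll1 (at 1 of its 2 listed starts), Jag1, Notch2 and Lfng, against 7.62% of promoters and 8.65% of genes. The letters G and C made up 56%, 57.2%, 72% and 66% of the windows that held it, in this order, against a median of 52.4% over all promoters. In the windows without it they made up 64% (the other start of Dll1), 52% (Dll3), 87.2% (Jag2), 66% (Notch1) and 68.8% (Notch3). The part of this letter content in the matches was not tested. The stretches from 200 to 31 bases before the starts of Lfng and Notch3 are shown because Lfng fell and Notch3 rose from d0 to d5FS and they hold all and none of these letters, with matches on either strand in capitals and each sequence written 5′ to 3′ on the strand of its gene. They cover chr5:140607141-140607310 (+ strand) and chr17:32166921-32167090 (- strand). Dll3, Jag2 and Notch1 also held none of these letters, and their libraries were all lower in d5FS than in d0. Notch2 held CACGCG, and its libraries were all higher. The bases after the Notch3 start were found in no GENCODE M21 transcript of the gene, so its orientation was not checked in this way.
Lfng: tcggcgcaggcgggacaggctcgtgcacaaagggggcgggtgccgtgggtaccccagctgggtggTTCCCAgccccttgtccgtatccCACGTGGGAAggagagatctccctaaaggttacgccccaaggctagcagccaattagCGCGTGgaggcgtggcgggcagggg
Notch3: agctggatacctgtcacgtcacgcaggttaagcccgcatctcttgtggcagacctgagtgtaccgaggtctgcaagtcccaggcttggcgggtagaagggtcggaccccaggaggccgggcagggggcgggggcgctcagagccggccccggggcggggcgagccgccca
In the Lfng stretch TGGGAA stands at 108 to 103 bases before the start, next to and overlapping CACGTG at 112 to 107, and again on the opposite strand at 135 to 130, and CACGCG stands on the opposite strand at 55 to 50. The joined letters CACGTGGGAA, which were looked up after the Lfng sequence had been seen, occur in 24 of the 32851 promoters. These matches describe letters only, and binding was not measured in the data used here.

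Hes1, a transcriptional repressor and the classical Notch target, had the largest rise of the 10 genes. The gene (chr16:30064384-30067796, + strand) was at 20.4 and 11 CPM in d0, 69.3 and 83.8 CPM in d3F and 80.4 and 113 CPM in d5FS. All 4 differentiated libraries were above d0, and the lower d5FS value lay between the d3F values. Hes1 rose by a log2 FC of 2.29 from d0 to d3F (SE 0.383, edgeR adjusted p = 0.0177) and by 2.63 from d0 to d5FS (SE 0.388, adjusted p = 0.00441), and from d3F to d5FS its log2 FC was 0.34 (SE 0.364, adjusted p = 0.669). The rise to d5FS was called with each library left out in turn, and the rise to d3F was not called without d0 replicate 2 (1.92, adjusted p = 0.0598) or d3F replicate 2 (2.15, adjusted p = 0.105). The summed fibroblast markers were also higher in d3F and d5FS than in d0, with the limits given for Notch3, and their part in the result was not tested.

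Hey1 (chr3:8663359-8667256, - strand), a repressor of a related family, was at 4.25 and 3.79 CPM in d0, 6.98 and 13.2 CPM in d3F and 8.62 and 8.77 CPM in d5FS. Every differentiated library was above both d0 libraries. Its log2 FC of 1.33 from d0 to d3F (SE 0.429, adjusted p = 0.121) and of 1.11 from d0 to d5FS (SE 0.429, adjusted p = 0.0937) did not pass, and from d3F to d5FS it was -0.22 (SE 0.42, adjusted p = 0.828).

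Counting separation alone, the libraries of the compared populations did not overlap for 8 of the 10 genes between d0 and d3F, for 4 between d3F and d5FS and for 9 between d0 and d5FS, against 51%, 52.3% and 62.7% of all genes tested. From d0 to d5FS the libraries of Notch2, Notch3, Hes1 and Hey1 were all higher, and those of Dll3, Jag1, Jag2, Notch1 and Lfng were all lower.

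Per length, Hes1 was the highest of the 10 genes in each population, at 12.6 ± 5.47 CPM per kb in d0, 61.2 ± 7.92 in d3F and 77.2 ± 18.4 in d5FS. The d0 libraries of Hes1 overlapped with those of Jag2 (10.7 ± 2.46) and Notch3 (8.47 ± 1.76), which came next, and Lfng followed at 7.82 ± 6.24, Notch2 at 7.34 ± 1.44 and Jag1 at 6 ± 1.18, each within the spread of its neighbours. Dll3 (3.42 ± 1.78), Notch1 (3.31 ± 0.648), Hey1 (2.01 ± 0.175) and Dll1 (1.61 ± 0.347) closed the order in d0, of which only Dll3 and Notch1 overlapped with a neighbour. In d3F and d5FS the first 3 places were held by Hes1, Notch3 (32.1 ± 11.8 and 33.7 ± 7.73 CPM per kb) and Notch2 (12.8 ± 1.68 and 11.5 ± 0.591), without overlap between their libraries. Dll3 came next in d3F at 10.9 ± 6.63, with a spread that took in both Notch2 and the following Jag1 (6.72 ± 0.294), Hey1 (5.04 ± 2.19) and Jag2 (4.93 ± 1.44) overlapped with their neighbours, and Notch1 (3.61 ± 0.211) stood apart from the last pair, Lfng (1.22 ± 0.901) and Dll1 (0.899 ± 0.0111). After the first 3 in d5FS, Jag2 (6.57 ± 1.26) stood apart from Hey1 (4.33 ± 0.0416) and Jag1 (4.29 ± 0.673), which overlapped, and Notch1 (2.58 ± 0.334), Dll1 (1.9 ± 1.1), Dll3 (1.36 ± 0.649) and Lfng (1.04 ± 0.69) each overlapped with the next.

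The rest of the pathway was read from a list of 44 further genes, of which 39 were tested. From d0 to d3F 1 of the 39 was called, against 4.7% of all genes, and from d3F to d5FS none was, against 1.54%. In the latter comparison 9 were at an unadjusted edgeR p under 0.05, for which the share of all genes was not counted. The DESeq2 Wald test called 3 of them there, beside 1104 genes in all. From d0 to d5FS 13 were called, 10 higher and 3 lower, which is 33.3% of the 39 against 22.8% of all genes, with a median log2 FC of 0.56 against 0.02. With the replicate block 7 (5 higher, 2 lower), 2 (both higher) and 14 (10 higher, 4 lower) were called in the 3 comparisons, against 9.08%, 6.31% and 29.5% of all genes. Leaving out single libraries kept between 4 and 10 of the 13 calls, namely 8 and 4 without d0 replicate 1 or 2, 10 and 9 without d3F replicate 1 or 2, and 4 without either d5FS replicate, and 3 genes (Maml3, Aph1c and Dtx3) were called each time. The calls of Poglut1 and Aph1b were kept in 1 of the 6 fits, those of Dll4 and Psen2 in 2, those of Mfng and Furin in 3 and those of Adam10 and Dtx1 in 4. Heyl was tested in 5 of these fits, and its call was kept in 1.

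Maml3, a Mastermind co-activator of the nuclear Notch complex, was the gene called from d0 to d3F. It was at 2.19 and 1.33 CPM in d0, 24.9 and 21.5 CPM in d3F and 45.5 and 37.6 CPM in d5FS, with no overlap between populations. Maml3 rose by a log2 FC of 3.71 from d0 to d3F (SE 0.385, edgeR adjusted p = 0.00576) and by 4.55 from d0 to d5FS (SE 0.398, adjusted p = 0.00132), and both rises were called with each library left out in turn. From d3F to d5FS its log2 FC was 0.84 (SE 0.338, adjusted p = 0.239). Of the other 5 genes of the nuclear complex none was called by the main edgeR fit. Spen and Rbpj were called from d0 to d3F with the block and by the DESeq2 Wald test. Spen, a co-repressor of the complex, was at 50.3 and 45.4 CPM in d0, 25.6 and 20.9 CPM in d3F and 26.9 and 22 CPM in d5FS, with a log2 FC of -1.04 from d0 to d3F (SE 0.3, edgeR adjusted p = 0.0895, with the block 0.029). Rbpj, the DNA-binding partner, named like Spen after its values were seen, was at 111 and 160 CPM in d0, 66.3 and 63.1 CPM in d3F and 78.9 and 65.8 CPM in d5FS. The log2 FC of Rbpj from d0 to d3F was -1.06 (SE 0.297, adjusted p = 0.0818, with the block 0.041, DESeq2 Wald 0.0205) and from d0 to d5FS -0.90 (SE 0.297, adjusted p = 0.059), the latter short of the fold threshold as well.

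Of the 10 genes for proteases that cut the receptor, 5 rose from d0 to d5FS and none fell, against 12.4% of all genes called higher and 22.8% called in either direction, with a median log2 FC of 1.19. This is the longest group of the list, and the share called was also 50% among the 4 glycosylation genes and the 2 ligands tested. Aph1c, a subunit of gamma-secretase, was at 1.17 and 2.12 CPM in d0, 4.87 and 4.84 CPM in d3F and 15 and 15 CPM in d5FS. Its log2 FC from d0 to d5FS was 3.19 (SE 0.445, adjusted p = 0.00366), and it was called with each library left out in turn. Aph1b, its close paralog, rose by 1.49 (SE 0.398, adjusted p = 0.0309), and because RSEM split shared fragments between both genes into fractional counts, the level of either is uncertain. Adam10, which makes the ligand-dependent cut, rose by 1.95 (SE 0.394, adjusted p = 0.0122), Furin, which cuts the receptor on its way to the surface, by 1.79 (SE 0.44, adjusted p = 0.0235), and Psen2, a catalytic subunit of gamma-secretase, by 1.53 (SE 0.433, adjusted p = 0.0374). The remaining 5 were not called.

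Of the regulators, 2 of 8 rose and 1 fell from d0 to d5FS, against 12.4% and 10.4% of all genes. Dtx3, of the Deltex family, was at 11.7 and 12.6 CPM in d0, 24.7 and 24.8 CPM in d3F and 38.8 and 36.6 CPM in d5FS. It rose by a log2 FC of 1.63 (SE 0.293, edgeR adjusted p = 0.0082), and this call held with each library left out. Dtx1, of the same family, fell by a log2 FC of -1.93 (SE 0.484, adjusted p = 0.0252), and Numbl, related to the Notch inhibitor Numb, rose by 1.10 (SE 0.315, adjusted p = 0.0391), a call that was lost in each of the 6 fits without a library. Among the enzymes that glycosylate the receptor, 2 of 4 fell, Mfng (given above) and Poglut1, which adds O-glucose, by -1.17 (SE 0.287, adjusted p = 0.0236). None of the 4 genes for ligand endocytosis was called.

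The ligand Dll4 and the target Heyl were called from d0 to d5FS on few counts. Dll4 had 1 count in each d0 library, 6 and 25.67 in d3F and 14 and 27 in d5FS, and its summed level was 24.7 times higher in d5FS than in d0 (95% interval 6.42 to 211, exact, counting error only). Heyl had 0 and 1 counts in d0, 0 and 2 counts in d3F and 10 and 18 counts in d5FS, a ratio of 33.8 (5.58 to 1381), and was not called by the DESeq2 Wald test (adjusted p = 0.0542). Both genes are known from blood vessels. Endothelial and blood markers summed to 34.4 and 33.7 CPM in d0, 8.08 and 12.4 CPM in d3F and 5.22 and 5.56 CPM in d5FS, and 3 of the 4 tested fell from d0 to d5FS. The d0 sum was mostly Pecam1 (13.8 and 27.5 CPM) and Tek (14.7 and 2.36 CPM). Cdh5 was at 0.0439 and 0.103, 0.284 and 1.36, and 0 and 0.459 CPM in d0, d3F and d5FS. Kdr was at 1.1 and 0.615, 2.07 and 7.58, and 1.19 and 0.229 CPM. Both had their highest mean in d3F, while Tal1 was highest in d0 and Etv2 overlapped between d0 and d3F. The part of such cells in the Dll4 and Heyl counts was not tested.

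**Figure D4:**
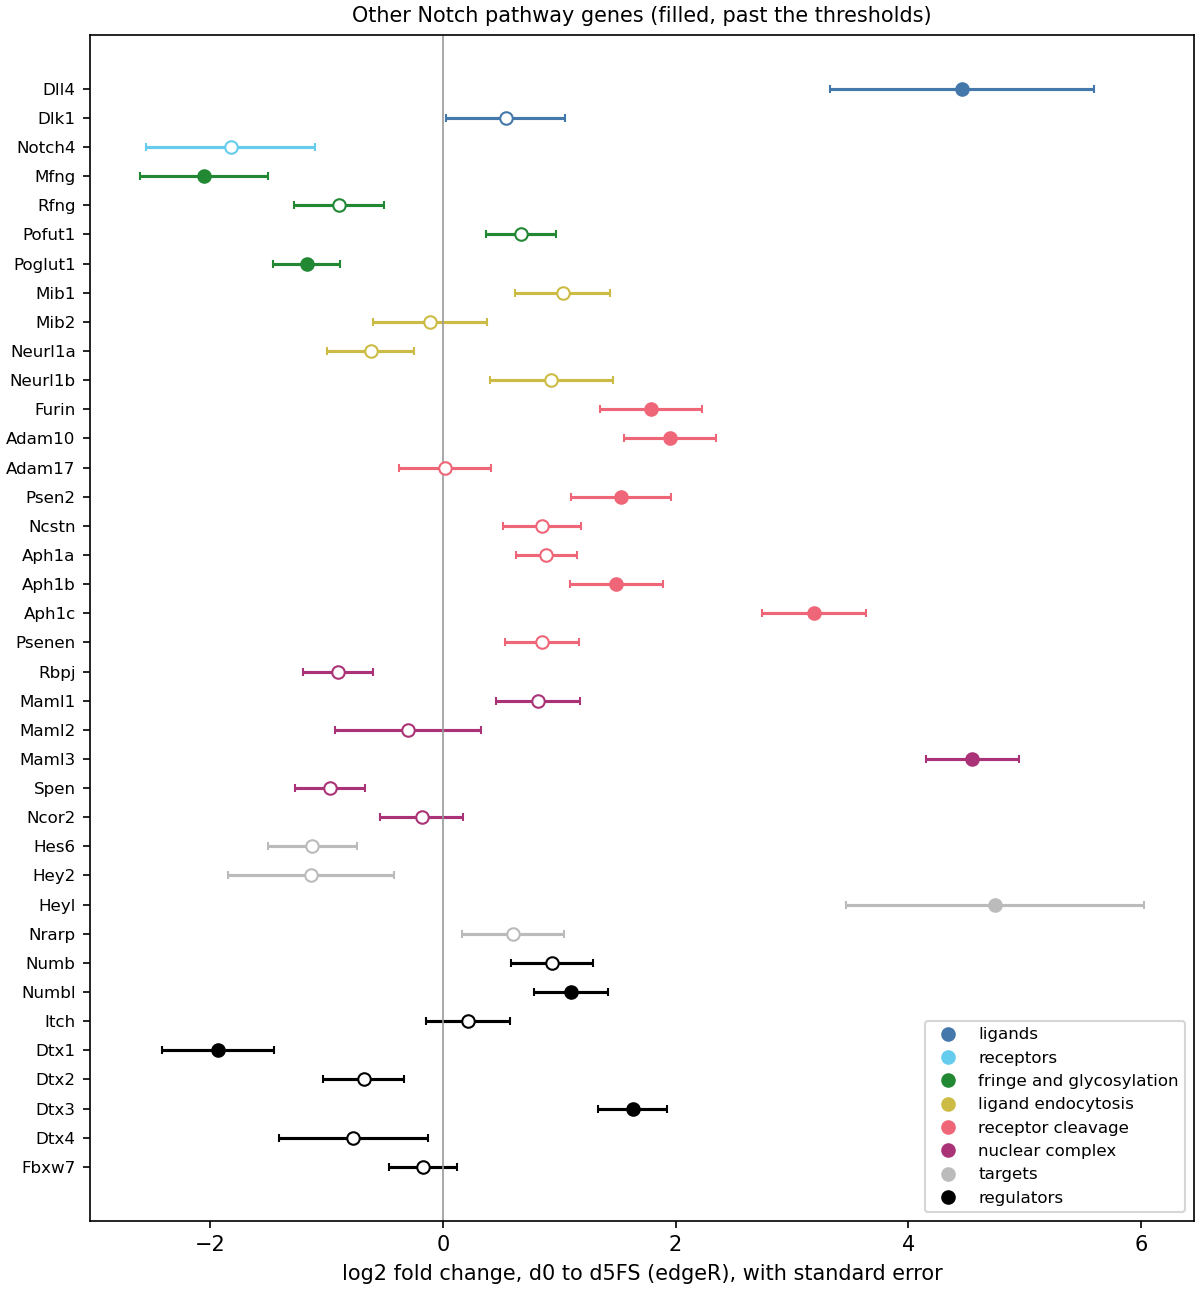
Log2 fold changes from d0 to d5FS (x axis, log2 scale) of the tested genes of the wider Notch list that are reported here, with bars for the standard error, filled points for genes past both thresholds and colours for their roles. Of the receptor cleavage genes 5 are filled, all to the right of 0, and Maml3 lies at 4.55, while Dll4 and Heyl have the widest bars.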

How the data were processed

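The 6 samples, labelled by day, sorting markers and replicate number, were used, and the study's methods call the replicates independent biological ones. Per the labels, total RNA was depleted of ribosomal RNA, and the submitters' processing notes name STAR, RSEM and mm10. In a sequencing table of the study the replicate libraries of a population carry different names, mRNA or total RNA, with no replicate number, so the replicate number, its block and the pairing could also mark the kind of library. Versions, annotation release and strand setting are not given in the sources used here. The expected counts that the authors deposited are unnormalized RSEM estimates of how many fragments each gene gave. The TPM values that the authors deposited are divided by effective length and scaled to a fixed sum. Small RNAs took 51.9% to 75.4% of TPM, so levels were compared between libraries as CPM, and between genes as CPM divided by the deposited effective length, in place of the TPM shares planned, which they equal within a library. No file was left out, and 1 gene of the wider list is counted but not reported here. Effective lengths served only for this division, and deposited FPKM values were not used.

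Expected counts were rounded and fitted with edgeR 4.0.16 in R 4.3.3 (filterByExpr, TMM, glmQLFit and glmQLFTest with a mean per population over all 6 samples, 3 residual degrees of freedom, prior count 0.125). The SE is the absolute log2 FC divided by the square root of F. The Notch genes, the wider list and the marker lists were chosen with earlier results of these data known. All 10 Notch genes are named, with each gene of the wider list that the main edgeR fit called in any comparison. For each called Notch gene, the 3 genes with the highest correlation to it are named. Rbpj, Spen, Notch4, Rfng, Hes6, Hey2, Nrarp and the untested genes of the wider list were named outside this rule. Not every gene that only an alternative called is named. Alternatives were DESeq2 1.42.0, other filters and scalings, a replicate block and each library left out. Same-numbered samples deviated together (replicate 1 minus replicate 2, r = 0.403, 0.445 and 0.405 between populations over 12086 genes), so the numbers, which come from the labels, were read as pairing the samples. Differences between replicates exceeded sampling noise (chi-square per degree of freedom of 100 to 226). In simulated data for d0 to d3F (14451 genes), 59% of genes changed by a log2 FC of 2 and 98% of those changed by 4 were recovered, with 3.68% false calls. Every simulated gene had the same dispersion (spread beyond counting error), and no difference between replicate numbers was simulated. These rates need not hold for the measured data. Gene overlaps are those of GENCODE M21 (GRCm38), and promoters are those of RefSeq (GRCm38.p6). Scripts used Python 3.11.15.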

Additional observations from a re-analysis of the deposited data

How the results depend on the processing

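With 2 replicates per population, each library bears on the calls. From d0 to d3F, 683 genes were called, with the DESeq2 Wald test 1516, with the DESeq2 test against a log2 FC of 1 384, without a filter on low counts 1933, with at least 10 counts in every sample 357 and with the replicate block 1320. From d3F to d5FS the 224 became 1104 with the DESeq2 Wald test, 1423 without the filter, 144 with at least 10 counts and 918 with the block, and from d0 to d5FS the 3313 became 1035 with the DESeq2 test against a log2 FC of 1. For d3F against the mean of d0 and d5FS the 60 became 578 with the DESeq2 Wald test, 896 without the filter, 12 with at least 10 counts and 172 with the block. Of the Notch genes, the DESeq2 Wald test called 4 from d0 to d3F and 1 each from d3F to d5FS and for d3F against the mean, the same numbers as without the filter and with the block. The DESeq2 test against a log2 FC of 1 called 0 from d0 to d3F and 1, Hes1, from d0 to d5FS, with Notch3 at an adjusted p of 0.158 and Lfng at 0.11. The block changed the calls of Dll3 and Lfng given in the report and of no other Notch gene.

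Without single libraries (where the lone sample left was assumed to vary like the other groups), the called genes ranged from 97 to 977 from d0 to d3F, 0 to 496 from d3F to d5FS, 1047 to 3037 from d0 to d5FS and 0 to 208 for d3F against the mean, and the called Notch genes from 0 to 2, 0 to 1, 2 to 3 and 0 to 1. Log2 FCs that changed sign without a library were not called with all 6. From d0 to d3F they ranged from -0.06 to 0.35 for Notch1 and -0.01 to 0.38 for Jag1, from d3F to d5FS from -1.16 to 0.82 for Lfng, -0.28 to 0.50 for Notch3 and -0.62 to 0.31 for Hey1, and from d0 to d5FS from -0.50 to 0.73 for Dll1. Shares of counts not divided by length put Jag1 (45.8%) above Dll3 (25.7%) in d3F, and Notch3 had 64.1% of the receptors in d5FS. In d0, undivided counts put Notch2 (1962 and 1272) above Notch3 (1711 and 1092). The causes of these shifts were not tested. Depth limits Dll4, Heyl and the 5 untested genes of the wider list.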

Other observations

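The patterns most like those of the called Notch genes were looked up among 10154 tested genes with a mean of at least 1 TPM, by Pearson correlation of log2 CPM over the same 6 libraries, which is a description over few points that also share their depth and sorting gates. For Notch3 they were Bcar3 (r = 0.9989), Chn2 (0.9979) and Nrp1 (0.9969), a co-receptor for semaphorins and vascular endothelial growth factor, and 215 genes had an r above 0.95. Nrp1 was at 2.41 and 0.974 CPM in d0, 19.8 and 90 CPM in d3F and 37 and 57.8 CPM in d5FS. For Hes1 they were Flt1 (0.9963), a vascular endothelial growth factor receptor, Xxylt1 (0.9955), a xylosyltransferase that extends the O-glucose glycan of Notch receptors, and Fzd2 (0.9943), a Wnt receptor, with 255 genes above 0.95. Flt1 was at 9.12 and 3.43 CPM in d0, 68.5 and 91.1 CPM in d3F and 78.7 and 104 CPM in d5FS. Lfng was most like Stk4 (0.9947), 5730507C01Rik (0.9940) and 2410127L17Rik (0.9885), with 70 genes above 0.95.

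Several Hes genes and a ligand-like gene of the wider list were near the limit of detection. Hes2 had 0 to 21 counts per library, Hes3 0 to 6, Hes5 0 to 8, Hes7 0 to 5 and Dlk2 2 to 15, and none was tested. Of the other Hes and Hey genes, Hes6 was at 53.9 and 29 CPM in d0, 34.7 and 29.3 CPM in d3F and 16.1 and 22 CPM in d5FS. Its log2 FC was -1.12 from d0 to d5FS (SE 0.379, edgeR adjusted p = 0.0639, with the replicate block -1.07 and 0.044). Hey2 was at 2.06 and 0.82, 0.203 and 0.455, and 0.567 and 0.745 CPM in d0, d3F and d5FS. The log2 FC of Hey2 was -2.14 from d0 to d3F (edgeR adjusted p = 0.148) and -1.13 from d0 to d5FS (0.274). For the target Nrarp these were 1.13 (edgeR adjusted p = 0.187) and 0.60 (0.344).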
